A study of Rattus norvegicus with 24 samples.

Results

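The blood transcriptome of LPS-G0 rats was compared with that of C-G0 rats to describe what repeated intravenous endotoxin did in animals that received no beta-glucan. The comparison held 8 of the 24 arrays of the series, 4 of each group, taken by the diet and the injection named in the sample titles. Both groups were male Sprague Dawley rats, 8 weeks old, that ate a semi-synthetic control diet (G0) for 6 weeks. LPS-G0 rats were injected through the tail vein with E. coli lipopolysaccharide (LPS) at 10 mg per kg of body weight, and again a week later, to induce enteritis, and C-G0 rats were injected with saline on the same plan. The rats of LPS-G1, C-G1, LPS-G2 and C-G2 had the same injections on diets with high-molecular-weight (G1) or low-molecular-weight (G2) oat beta-glucan, and entered here only in 2 ways: LPS-G1 and LPS-G2 shared the estimate of the spread between rats, and all 4 groups served the comparison across diets. Blood was drawn by cardiac puncture after fasting, and the time between the last injection and the puncture is not given in the sources used here. Every array set the RNA of a single rat, in the dye Cy3, against a common reference of pooled rat blood RNA, in Cy5. The field for the induction of inflammation reads control for LPS-G0 replicates 3 and 4, against their titles and source names, and the titles were followed.

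Lipopolysaccharide is the outer-membrane glycolipid of Gram-negative bacteria. It is handed by the plasma protein Lbp to Cd14 and then to the receptor complex of Tlr4 and Ly96 on monocytes, macrophages and neutrophils, from where the adaptors Myd88 and Ticam1 lead to NF-kB, to cytokines such as Tnf and Il6 and to interferon-induced genes. Whole blood RNA mixes the transcripts of red cell precursors, platelets, neutrophils, monocytes and lymphocytes, so a difference in a marker gene can reflect cell number or expression per cell, and in these bulk samples fewer cells of a type and less RNA per cell cannot be told apart. Natural killer (NK) cells and cytotoxic T cells kill through granules that hold perforin (Prf1) and serine proteases, the granzymes. Their genes are known targets of the RUNX and T-box families of transcription factors.

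The stretches of 250 bases before the transcription start of 5 cytotoxic granule genes and of Fam111a, the gene with the smallest p, are shown as examples. The 5 are the granule genes that were above background on all 8 arrays and past the unadjusted p, so that Gzmb, Gzmc and Faslg, also past that p, are not among them. The sequences were taken from RefSeq on the rat assembly GRCr8, 5′ to 3′ on the gene's strand, with matches to TGTGGT (the RUNX core, read on both strands, so that ACCACA is a match on the other strand) in capitals. Prf1 lies at chr20:29788790-29789039 (plus strand), Gzma at chr2:46485697-46485946, Gzmk at chr2:46582016-46582265 and Gzmm at chr7:10667257-10667506 (minus strand), Nkg7 at chr1:102981247-102981496 and Fam111a at chr1:219065389-219065638 (plus strand).
Prf1: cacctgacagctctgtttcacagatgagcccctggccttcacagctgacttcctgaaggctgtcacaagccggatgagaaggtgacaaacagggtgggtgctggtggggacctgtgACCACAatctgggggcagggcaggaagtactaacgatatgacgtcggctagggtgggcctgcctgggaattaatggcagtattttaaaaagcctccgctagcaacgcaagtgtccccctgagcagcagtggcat
Gzma: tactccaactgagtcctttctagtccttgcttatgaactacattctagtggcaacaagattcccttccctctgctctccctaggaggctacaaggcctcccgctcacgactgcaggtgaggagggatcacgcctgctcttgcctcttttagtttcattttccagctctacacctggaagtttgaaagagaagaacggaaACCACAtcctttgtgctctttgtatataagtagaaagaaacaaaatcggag
Gzmk: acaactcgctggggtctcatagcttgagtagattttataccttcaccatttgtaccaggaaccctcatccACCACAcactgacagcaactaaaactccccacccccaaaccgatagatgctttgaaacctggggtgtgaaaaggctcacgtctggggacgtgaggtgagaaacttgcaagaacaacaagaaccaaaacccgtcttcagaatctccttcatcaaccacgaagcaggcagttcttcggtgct
Gzmm: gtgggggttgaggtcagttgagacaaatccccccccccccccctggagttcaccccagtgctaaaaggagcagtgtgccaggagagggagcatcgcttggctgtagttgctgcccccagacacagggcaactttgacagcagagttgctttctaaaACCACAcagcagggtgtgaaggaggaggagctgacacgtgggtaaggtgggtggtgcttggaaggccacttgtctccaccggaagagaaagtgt
Nkg7: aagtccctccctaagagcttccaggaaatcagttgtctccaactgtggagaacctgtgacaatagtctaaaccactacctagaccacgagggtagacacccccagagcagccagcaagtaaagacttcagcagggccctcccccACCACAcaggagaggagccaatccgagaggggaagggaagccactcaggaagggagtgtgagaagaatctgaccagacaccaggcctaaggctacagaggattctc
Fam111a: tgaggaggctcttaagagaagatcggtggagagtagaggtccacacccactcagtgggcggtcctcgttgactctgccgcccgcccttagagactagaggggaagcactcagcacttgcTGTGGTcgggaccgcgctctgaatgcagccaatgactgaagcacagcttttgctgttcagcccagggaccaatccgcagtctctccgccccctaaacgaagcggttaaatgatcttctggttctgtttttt
Over the cytotoxic granule list described below, 8 of the 14 measured genes with a sequence held a match to TGTGGT, as did 14.5% of 33469 promoters of the same length. The count was 2 of 8 for NK receptors, 4 of 16 for T cells, 2 of 5 for B cells and 1 of 6 for neutrophils. Each of the 6 sequences shown held 1 match, and since their genes were chosen by their values, nothing is read from that count. The T-box core AGGTGTG was in 0 of the 6 sequences shown (4.80% of all promoters), TGANTCA (AP-1) in 0 (6.34%) and TTCNNNGAA (STAT) in 1, that of Nkg7 (7.67%), apart from its RUNX match. These matches describe letters in a window, and nothing about binding was measured.

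Values are log2 ratios of the rat's RNA to the reference, so that 0 is the level of the pool, and a log2 fold change is the mean of LPS-G0 minus the mean of C-G0. The labels name Cy3 as the dye of the rats and the study's methods name Cy5, and the labels were followed because the arrays of a group varied more in Cy3. Under the other assignment every sign would turn. A probe was tested where its Cy3 signal was well above background on all 4 arrays of C-G0 or all 4 of LPS-G0, which left 9432 probes for 8588 genes. Of these, 7380 probes for 6775 genes were well above background on all 8 arrays, and 1956 probes passed through LPS-G0 alone against 96 through C-G0 alone. By limma's moderated test with Benjamini-Hochberg adjustment over all probes, 1 probe (0.0106%) had an adjusted p under 0.05. At the unadjusted p under 0.05, which 1517 probes reached, 1107 were higher and 410 lower in LPS-G0, but in the Cy3 channel alone the split was 255 higher and 257 lower. Taken by gene, 12.1% of the genes tested were higher and 4.34% lower at this p, and over the genes above background on all 8 arrays 10.6% were higher and 4.74% lower. All 4 LPS-G0 arrays were above all 4 C-G0 arrays for 4.27% of the genes and below for 1.22%. These shares are the background against which the counts in each gene list below were read.

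C-G0 replicate 1 stood apart from its group. Across the tested probes its log2 ratios correlated at -0.186 to 0.140 (Pearson's r over probes, which are not independent) with the other 3 C-G0 arrays and at 0.368 to 0.578 with the LPS-G0 arrays. C-G0 replicate 4 also had low correlations, -0.186 to 0.12 with its own group and -0.175 to 0.045 with LPS-G0. The median standard deviation of a probe was 0.357 in C-G0 and 0.215 in LPS-G0. Without C-G0 replicate 1, 1202 probes passed the adjusted p, 883 higher and 319 lower, or 9.68% and 3.56% of the genes. Each value below is therefore given with all 8 arrays and, where named, without that array. The array was singled out from these same values by its likeness to LPS-G0. An adjusted p without it is therefore a description and gives no separate support. Leaving out any other single array gave 0 or 1 probes past the adjusted p. The number of probes well above background ran from 7786 (C-G0 replicate 3) to 15385 (C-G0 replicate 4) on the 8 arrays, and no spot was saturated in Cy3.

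The samples carried the transcripts of blood. Of the marker lists, 7 of 12 hemoglobin genes, 27 of 30 erythroid genes, 16 of 22 platelet genes, 21 of 25 T cell genes, 15 of 25 monocyte genes, 10 of 20 B cell genes and 9 of 26 neutrophil genes could be tested. Some defining markers could not. The signal of Cd4 cleared background on 1 array of C-G0 and 0 of LPS-G0, that of Mpo on 3 and 1, that of the NK receptor Ncr1 on 2 and 3, and that of the neutrophil granule proteases Elane, Prtn3 and Ctsg on 0 of 8. Of 19 genes of endothelium, epithelium, muscle and liver, 6 were tested, and Alb, Ttr, Epcam, Krt8 and Krt18 were above background on 0 of 8 arrays.

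Genes of the cytotoxic granule that passed the unadjusted p were higher in LPS-G0 in each case. The median log2 fold change was 0.64 over 15 measured genes of 16, against 0.038 over all genes tested. At the unadjusted p, 8 were higher (Prf1, Gzma, Gzmb, Gzmc, Gzmk, Gzmm, Nkg7 and Faslg) and 0 lower. 4 of the 15 passed the background filter through LPS-G0 alone, and over the 11 that were above background on all 8 arrays 5 were higher, with a median of 0.37. None passed the adjusted p with all 8 arrays. Gzmk, a granzyme of NK and memory T cells (chromosome 2, 44589378 to 44589437 on rn4), had log2 ratios of -1.31, -0.096, -0.32 and -0.39 in C-G0 and 0.85, 0.69, 0.20 and 0.54 in LPS-G0 replicates 1 to 4. All LPS-G0 arrays were above all C-G0 arrays, and the log2 fold change was 1.1 (SE 0.24, adjusted p = 0.192, exact permutation p = 0.0286, two-sided, the smallest that 70 arrangements allow). Gzma, the neighbouring tryptase gene, had log2 ratios of -1.72, -0.027, -0.42 and -0.67 in C-G0 and 0.82, 0.47, 0.15 and 0.68 in LPS-G0. Here too the groups did not overlap, with a log2 fold change of 1.24 (SE 0.31). Gzmm, a granzyme of NK cells, had log2 ratios of -1.29, -0.091, -0.16 and -0.46 in C-G0 and 0.55, 0.58, -0.0037 and 0.14 in LPS-G0, again without overlap (log2 fold change 0.82, SE 0.22). Gzmc was at -1.30, -0.072, -1.33 and -0.37 in C-G0, where it was above background on 2 of 4 arrays, and at 0.63, 0.61, 0.10 and 0.81 in LPS-G0, where it was so on all 4 (log2 fold change 1.30, SE 0.32).

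For Prf1, Gzmb and Nkg7, also past the unadjusted p, the groups overlapped. Prf1, the pore former, had log2 ratios of -1.53, 0.31, -0.40 and -0.32 in C-G0 and 0.68, 0.51, -0.42 and 0.46 in LPS-G0. C-G0 replicate 1 was far below the rest and LPS-G0 replicate 3 lay among the controls, and the log2 fold change of 0.79 (SE 0.32) became 0.44 without C-G0 replicate 1 (adjusted p = 0.263 by limma). Gzmb, the granzyme that cleaves caspases, ran from -2.58 to -0.015 in C-G0 and from -0.40 to 0.82 in LPS-G0 (log2 fold change 1.35, and 0.85 without C-G0 replicate 1). Nkg7, a granule membrane protein of killer cells, had log2 ratios of -1.56, -0.14, -0.61 and -0.53 in C-G0 and 0.46, 0.28, -0.25 and 0.15 in LPS-G0. Its log2 fold change was 0.87, and 0.59 without C-G0 replicate 1. In the granule list C-G0 replicate 1 was the lowest or next to lowest array of each named gene, yet leaving it out kept the direction of all 8. Without it, 4 of 15 genes (Gzma, Gzmc, Gzmk and Gzmm) passed the adjusted p and the median was 0.41. General granule and lysosome genes of the list did not share the difference, with log2 fold changes of -0.046 for Srgn, the proteoglycan core of granules, 0.20 for Lamp1, -0.044 for Unc13d and -0.15 for Rab27a, the last 2 needed for granule release.

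**Figure D1:**
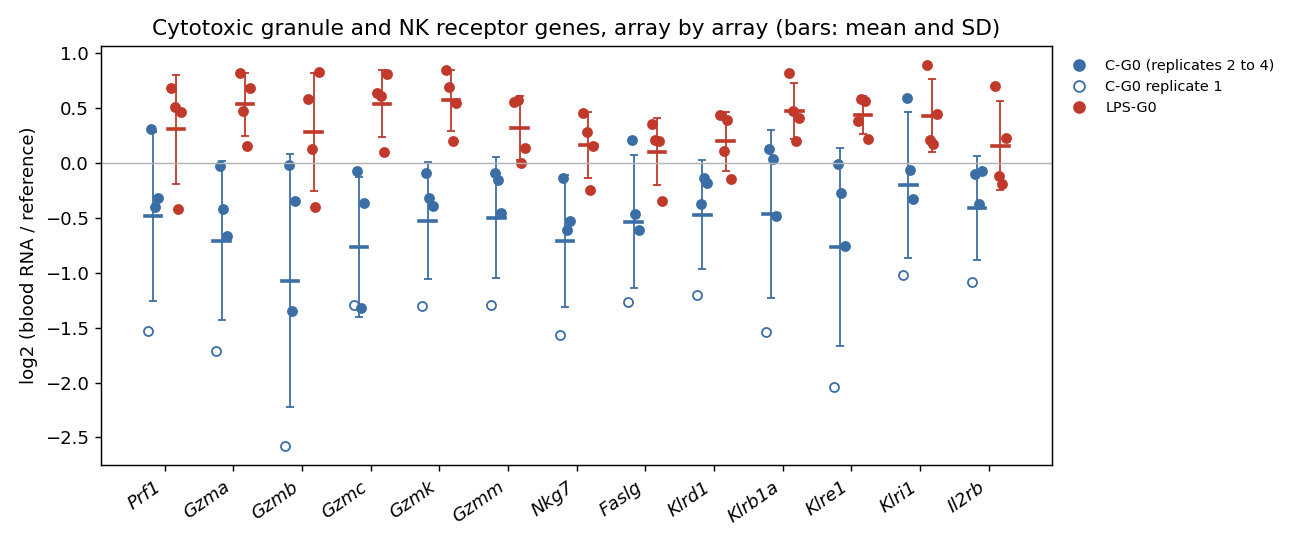
Log2 ratio of blood RNA to the reference (vertical axis) for 13 cytotoxic granule and NK receptor genes. Each point is an array, bars are the mean and SD of 4 arrays, and the open circle is C-G0 replicate 1, which lies lowest or next to lowest in C-G0 for each gene shown.

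NK receptors that passed the unadjusted p were also higher in LPS-G0, but the median of the list rested on genes that passed the filter through LPS-G0 alone. The median log2 fold change was 0.42 over 10 measured genes of 27, of which 5 passed the unadjusted p upward and 0 downward. 5 of the 10 passed the filter through LPS-G0 alone, and the 5 genes above background on all 8 arrays had a median of -0.0073 with 1 higher (Il2rb). Klre1, a lectin-like receptor of NK cells, had log2 ratios of -2.04, -0.0085, -0.27 and -0.75 in C-G0, where it was above background on 2 of 4 arrays, and 0.38, 0.58, 0.56 and 0.22 in LPS-G0. The groups did not overlap and the log2 fold change was 1.21 (SE 0.32), or 0.78 without C-G0 replicate 1 (adjusted p = 0.0254 by limma). Klrb1a, an activating receptor of rat NK cells, had log2 ratios of -1.54, 0.12, 0.033 and -0.48 in C-G0 and 0.82, 0.47, 0.20 and 0.41 in LPS-G0, also without overlap (log2 fold change 0.94, SE 0.29). Klrd1, the CD94 chain, differed by 0.67, Klri1 by 0.63 and Il2rb, the shared chain of the receptors for IL-2 and IL-15, by 0.57, and the groups overlapped for the 3 genes. Tbx21, the T-box factor of NK and effector T cells, differed by -0.32 and Cd226, an adhesion receptor that activates NK cells, by -0.37, neither past the unadjusted p.

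Fcgr3a, Ccl5 and S1pr5, of the complement and Fc receptor, chemokine and adhesion lists, were higher at the unadjusted p. Fcgr3a and S1pr5 were above background on 3 and 2 of 4 C-G0 arrays and passed the filter through LPS-G0 alone. Fcgr3a, the Fc receptor through which NK cells and some monocytes bind antibody, had log2 ratios of -2.40, -0.47, -0.90 and -0.82 in C-G0 and -0.19, -0.082, -0.44 and 0.49 in LPS-G0. All LPS-G0 arrays were above all C-G0 arrays, with a log2 fold change of 1.09 (SE 0.36) and 0.67 without C-G0 replicate 1. Ccl5, a chemokine stored by cytotoxic cells, had log2 ratios of -0.95, -0.15, -0.35 and -0.26 in C-G0 and 0.36, 0.24, 0.078 and -0.13 in LPS-G0. Its groups did not overlap, and it differed by 0.57 (SE 0.17). S1pr5, the sphingosine 1-phosphate receptor by which NK cells leave the marrow, differed by 0.60, with overlapping groups. Neither Fcgr3a, Ccl5 nor S1pr5 passed the adjusted p with or without C-G0 replicate 1.

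Genes of neutrophils lay lower in LPS-G0. All 9 measured genes of 26 were above background on all 8 arrays, 8 of the 9 had a negative log2 fold change, and 4 were lower at the unadjusted p (S100a9, Padi4, Camp and Cxcr2) and 0 higher. The median was -0.53, and -0.42 without C-G0 replicate 1. Padi4, the enzyme that citrullinates histones during extracellular trap formation, had log2 ratios of 0.34, -0.074, -0.27 and -0.038 in C-G0 and -0.58, -0.53, -0.62 and -0.56 in LPS-G0. The LPS-G0 arrays lay close together and below all C-G0 arrays, with a log2 fold change of -0.56 (SE 0.17, adjusted p = 0.193 by limma). S100a9, which with S100a8 forms the calprotectin of neutrophil cytosol, had log2 ratios of -0.093, 0.26, 0.23 and 0.44 in C-G0 and -0.79, 0.0083, -0.49 and -0.80 in LPS-G0. LPS-G0 replicate 2 lay among the controls, and the log2 fold change was -0.73 (SE 0.28). S100a8 differed by -0.53, short of the unadjusted p (adjusted p = 0.318 by limma). Camp, the cathelicidin of secondary granules, had log2 ratios of 0.49, -0.054, 0.27 and -0.30 in C-G0 and -0.65, -0.26, -0.45 and -0.42 in LPS-G0, and Cxcr2, the chemokine receptor that draws neutrophils from the marrow, 0.61, 0.11, 0.58 and 0.29 and -0.49, 0.27, -0.49 and -0.10. For both the groups overlapped, with log2 fold changes of -0.55 and -0.60. Without C-G0 replicate 1 neither reached the unadjusted p (-0.42 and -0.53), and 0 of the 9 genes passed the adjusted p. Csf3r, the receptor for granulocyte colony-stimulating factor, differed by -0.34, Il1r2 by -0.25, Retnlg by -0.011 and Fpr2, a receptor for formylated peptides, by 0.22, and none of the 4 passed.

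Lrg1, a glycoprotein stored in neutrophil granules, and Steap4, a metalloreductase, were lower too at the unadjusted p. Lrg1 had log2 ratios of -0.12, -0.35, 0.22 and 0.43 in C-G0 and -0.63, -0.52, -0.72 and -0.58 in LPS-G0. Steap4 had log2 ratios of -0.16, 0.0092, -0.051 and 0.027 in C-G0 and -0.69, -0.56, -0.92 and -0.61 in LPS-G0. Neither gene's groups overlapped, and the log2 fold changes were -0.66 (SE 0.18) and -0.65 (SE 0.18). Without C-G0 replicate 1 both passed the adjusted p (-0.71, adjusted p = 0.026, and -0.69, adjusted p = 0.0268).

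T cell genes were mixed. Of 21 measured genes of 25, 4 were lower at the unadjusted p (Cd3e, Cd8b, Il7r and Tcf7) and 1 higher (Themis), with a median log2 fold change of -0.14, or -0.35 without C-G0 replicate 1. Fitted to the 8 arrays alone, Tcf7 and Themis fell short of that p, and Cd3e, Cd8b and Il7r kept it. Within slides the median turned its direction, from 0.29 on the slide that held replicates 1 and 2 of both groups to -0.21 and -0.64 on the slides of replicate 3 and replicate 4. Cd8b, the beta chain of the co-receptor of cytotoxic T cells, had log2 ratios of 0.39, 0.80, 0.57 and 0.49 in C-G0 and -0.17, 0.098, 0.17 and -0.21 in LPS-G0. Each LPS-G0 array was below each C-G0 array, and the log2 fold change was -0.59 (SE 0.15), or -0.65 without C-G0 replicate 1. Cd8a, the partner chain, differed by 0.11 (adjusted p = 0.86 by limma). Cd3e and Cd3d, both chains of the T cell receptor complex, differed by -0.61 and 0.038. Cd3e had log2 ratios of 0.078, 0.95, 0.65 and 0.16 in C-G0 and -0.27, 0.43, -0.20 and -0.55 in LPS-G0, whose ranges overlapped. Il7r and Tcf7, the survival receptor and the transcription factor of naive T cells, differed by -0.73 and -0.59. Themis, a signalling adaptor of thymocytes and T cells, was higher by 0.48. It was above background on 3 of 4 C-G0 arrays and passed the filter through LPS-G0 alone. Over the 18 T cell genes above background on all 8 arrays 4 were lower and 0 higher. Camk4, a kinase that is prominent in T cells, had log2 ratios of 0.12, 0.67, 0.34 and 0.054 in C-G0 and -0.14, -0.035, -0.41 and -0.75 in LPS-G0, without overlap (log2 fold change -0.63, SE 0.18).

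Among B cell genes, 8 of 10 measured had a negative log2 fold change, and 1 of them, Ms4a1, was lower at the unadjusted p. The median was -0.21, and -0.51 without C-G0 replicate 1. Ms4a1, the CD20 antigen, had log2 ratios of -0.31, 0.58, 1.99 and 0.033 in C-G0 and -0.53, -0.43, 0.052 and -0.44 in LPS-G0. C-G0 replicate 3 was far above the rest. Without it the log2 fold change moved from -0.91 to -0.44 and lost the unadjusted p. Bank1, a scaffold protein of B cells, differed by -0.60. Genes of antigen presentation by MHC class II depended on C-G0 replicate 1, with a median of -0.031 over all 8 arrays and -0.36 without it. Cd74, the invariant chain, had log2 ratios of -1.40, 0.39, 0.25 and 0.32 in C-G0 and -0.48, -0.84, -0.42 and -0.52 in LPS-G0. C-G0 replicate 1 lay below all LPS-G0 arrays and the other C-G0 arrays above them, so that the log2 fold change was -0.45 (adjusted p = 0.487) with all arrays and -0.88 (adjusted p = 0.0098 by limma) without it. Ciita, the master regulator of the class, was the 1 of 11 measured MHC class II genes that was lower at the unadjusted p (log2 fold change -0.54).

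**Figure D2:**
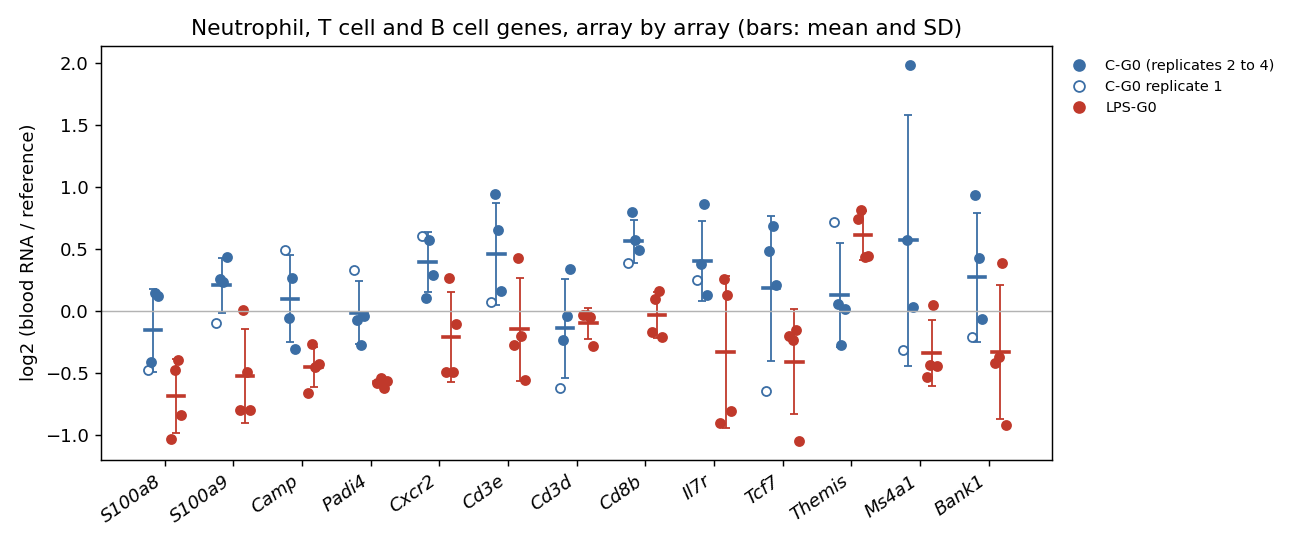
Log2 ratio of blood RNA to the reference (vertical axis) for 5 neutrophil, 6 T cell and 2 B cell genes. Each point is an array, bars are the mean and SD of 4 arrays and the open circle is C-G0 replicate 1. The Padi4 and Cd8b groups do not overlap, and the Ms4a1 mean of C-G0 rests on the array at 1.99.

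The list means on single arrays show how the groups were placed. Cytotoxic granule genes averaged -0.85, 0.081, -0.49 and -0.26 on C-G0 replicates 1 to 4 and 0.29, 0.22, -0.046 and 0.27 on LPS-G0 replicates 1 to 4. The ranges overlapped, since C-G0 replicate 2 was above LPS-G0 replicate 3. Neutrophil genes averaged 0.081, -0.26, 0.056 and 0.046 in C-G0 and -0.53, -0.18, -0.53 and -0.32 in LPS-G0, with C-G0 replicate 2 below LPS-G0 replicate 2. On each slide the neutrophil median was negative (-0.31, -0.60 and -0.23) and the cytotoxic granule median positive (0.81, 0.37 and 0.60). B cell genes averaged -0.82, 0.28, 0.25 and 0.04 in C-G0 and -0.20, -0.48, -0.076 and -0.45 in LPS-G0, and T cell genes -0.31, 0.12, 0.15 and 0.22 and -0.029, 0.11, -0.056 and -0.39.

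**Figure D3:**
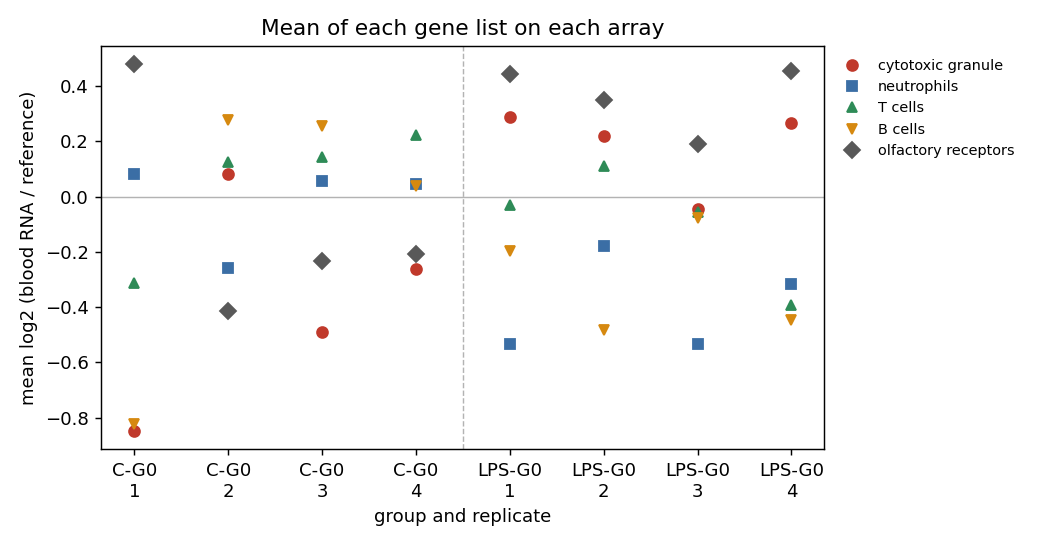
Mean log2 ratio of blood RNA to the reference over the measured genes of 5 lists (vertical axis) on each of the 8 arrays (horizontal axis). Cytotoxic granule and B cell genes are lowest on C-G0 replicate 1, where the mean of the olfactory receptor genes is at the level of the LPS-G0 arrays.

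Monocyte genes showed no shared shift. The median was 0.073 over 15 measured genes (-0.24 without C-G0 replicate 1, and -0.0048 with the normexp background correction), and 1 was higher at the unadjusted p, Adgre1, an adhesion receptor that marks macrophages, at 0.58 with overlapping groups and 0.36 without C-G0 replicate 1. Adgre1 was above background on 3 of 4 C-G0 arrays and passed the filter through LPS-G0 alone. Over the 13 monocyte genes above background on all 8 arrays 0 were higher. Cd68, a lysosomal protein of macrophages, differed by 0.073. Platelet genes had a median of -0.045 over 16 genes, with 1 higher (Gp5, a subunit of the von Willebrand factor receptor, 0.30) and 1 lower (Tubb1, the platelet beta-tubulin, -0.80), and Pf4, the chemokine of alpha granules, differed by 0.26.

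Red cell genes split between members. Over 27 genes of the red cell membrane and its transcription factors the median was 0.042 (-0.017 in the Cy3 channel alone), with 4 higher (Dmtn, Klf1, Trim10 and Trim58) and 2 lower (Epb41 and Zfpm1). Dmtn passed the filter through LPS-G0 alone, and over the 24 genes above background on all 8 arrays 3 were higher and 2 lower. Klf1, the factor that switches on adult globin genes, had log2 ratios of -0.049, -0.36, 0.014 and 0.33 in C-G0 and 0.69, 0.36, 0.42 and 0.91 in LPS-G0. All LPS-G0 arrays were above all C-G0 arrays, with a log2 fold change of 0.61 (SE 0.20). Zfpm1, the partner of the GATA factors, had log2 ratios of 0.33, 0.37, 0.45 and 0.27 in C-G0 and 0.26, -0.27, -0.13 and -0.79 in LPS-G0, below C-G0 by a narrow margin (log2 fold change -0.59, and -0.40 without LPS-G0 replicate 4, which lost the unadjusted p). Epb41, a protein of the membrane skeleton, differed by -0.78, and by -0.56 without C-G0 replicate 1, short of the unadjusted p. Among 7 hemoglobin genes 2 were higher and 0 lower, with a median of 0.22. Hbb-b1, an adult beta chain, had log2 ratios of -0.51, -0.85, -0.76 and -0.58 in C-G0 and -0.30, -0.39, -0.29 and -0.076 in LPS-G0, without overlap (log2 fold change 0.41, SE 0.15). Hbg1, the gamma chain, differed by 0.69 (SE 0.17), and Hba-a1, the adult alpha chain, by 0.056. A second, slightly dimmer Hba-a1 probe differed by 0.36, past the unadjusted p and without overlap. Globin chains are near-identical copies, and probes may read more than one of them.

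The genes that recognise endotoxin gave little signal of their own. Tlr4 was above background on 0 of 8 arrays, Cd14 on 2 of 4 in each group, and Lbp and Ly96 on 1 array each, of C-G0, so that none of the 4 was tested. Of 10 measured genes of 26 in the pathway from the receptor to the kinases, 0 passed the unadjusted p upward and 1 downward, with a median of -0.058. The lower gene was Map3k7, the kinase TAK1 that relays the receptor to NF-kB, with log2 ratios of 0.60, 0.47, 0.18 and -0.18 in C-G0 and -0.38, -0.023, -0.22 and -0.37 in LPS-G0. C-G0 replicate 4 overlapped with LPS-G0, and the log2 fold change of -0.52 (SE 0.19) became -0.41 without C-G0 replicate 1, short of the unadjusted p. Tab2, its adaptor, differed by -0.29 (adjusted p = 0.321 by limma), Myd88 by -0.21 and Irak1 by 0.046.

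The acute inflammatory cytokines of endotoxin were either not measured or not higher in LPS-G0. Il6, Ifng, Il1a, Il12a, Il12b and Ifnb1 were well above background on 0 of 8 arrays. Tnf, the acute cytokine of endotoxin, had log2 ratios of -0.58, -0.30, -0.089 and -0.21 in C-G0 and -0.73, 0.13, -0.45 and -0.98 in LPS-G0. The groups overlapped, with LPS-G0 on both sides of C-G0, and the log2 fold change was -0.21 (SE 0.27, adjusted p = 0.743 by limma). Il1b, the cytokine that the inflammasome matures, had log2 ratios of -0.48, -0.76, -0.025 and 0.039 in C-G0 and -0.73, -0.83, -0.30 and -0.56 in LPS-G0, with a log2 fold change of -0.30 (SE 0.25, adjusted p = 0.577 by limma). Il1rn, the antagonist of its receptor, differed by -0.25. Of 8 measured cytokine genes of 23, 1 was higher at the unadjusted p, Lif, a cytokine of the IL-6 family, at 0.18, -1.08, -1.92 and -0.28 in C-G0 and 0.21, 0.30, -0.27 and 0.43 in LPS-G0. C-G0 replicate 1 lay among the LPS-G0 arrays, and the log2 fold change was 0.95 (SE 0.32), or 1.26 without that array (adjusted p = 0.0129 by limma). Lif was above background on 3 of 4 C-G0 arrays and passed the filter through LPS-G0 alone. Over the 6 cytokine genes above background on all 8 arrays 0 were higher at the unadjusted p. Osm, of the same family, showed the same placement of C-G0 replicate 1, with 0.47, -0.43, -0.51 and -0.36 in C-G0 and 0.43, 0.32, 0.00057 and 0.13 in LPS-G0 (log2 fold change 0.43, and 0.66 without that array).

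In the NF-kB list 2 of 11 measured genes passed the unadjusted p upward and 0 downward, with a median of 0.098 (-0.047 in the Cy3 channel alone). 3 of the 11 passed the filter through LPS-G0 alone, among them Nfkbid (above background on 3 of 4 C-G0 arrays), and over the 8 above background on all 8 arrays 1 was higher. Over all genes tested 12.1% were higher, and 10.6% over those above background on all 8 arrays, so these counts are near the background. Both higher genes encode members of the inhibitor (IkB) family, of which Nfkbia and Bcl3 were also measured and did not pass. Nfkbid had log2 ratios of 0.61, -0.43, -0.70 and -0.24 in C-G0 and 0.73, 0.62, 0.29 and 0.75 in LPS-G0, and Nfkbib 0.67, -0.41, -0.32 and -0.11 and 0.47, 0.35, 0.33 and 0.50. In both C-G0 replicate 1 was at or above the level of LPS-G0 and the other C-G0 arrays below it, with log2 fold changes of 0.79 and 0.45 that were 1.06 and 0.69 without that array (adjusted p = 0.00502 and 0.00681 by limma). Nfkb1, the p105 subunit, differed by -0.23 (adjusted p = 0.543 by limma).

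**Figure D4:**
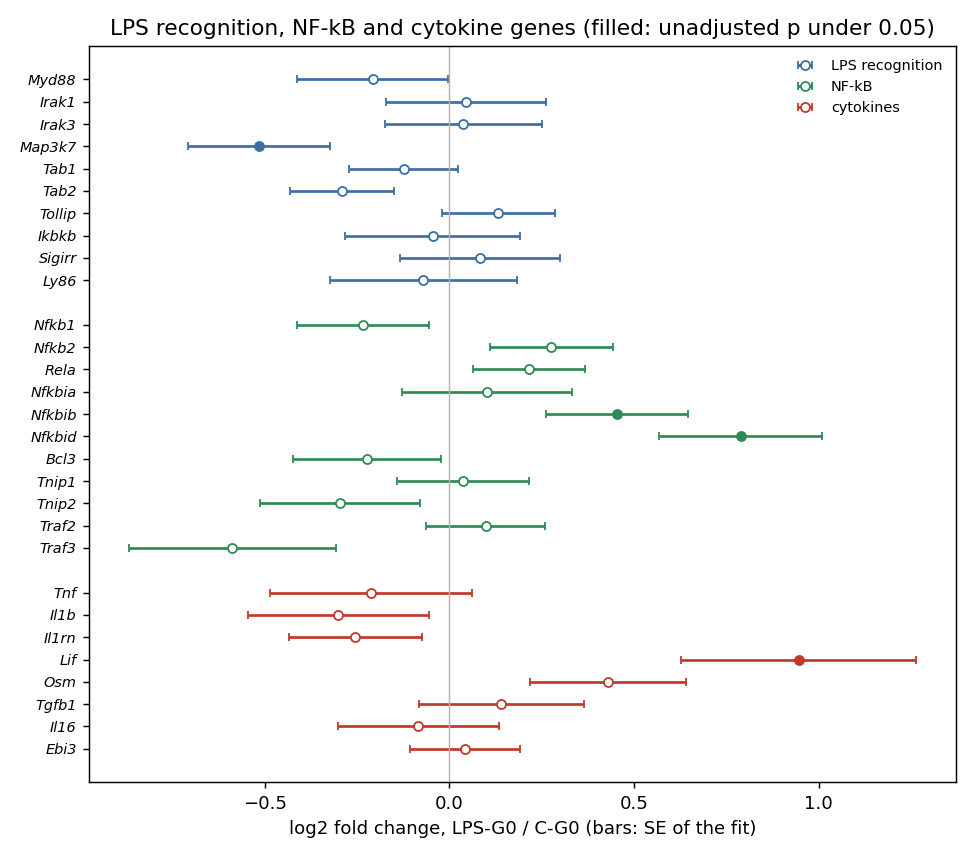
Log2 fold change of LPS-G0 over C-G0 with the standard error of the fit (horizontal axis) for the 10 LPS recognition, 11 NF-kB and 8 cytokine genes that were tested. Filled points have an unadjusted p under 0.05. They are Map3k7, Nfkbib, Nfkbid and Lif. The points of Tnf and Il1b lie below 0, and the bar crosses 0 for Tnf and stops short of it for Il1b.

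Interferon-induced genes lay on both sides. Of 31 measured genes of 52, 4 were higher (Isg15, Irf7, Ifi35 and Xaf1) and 3 lower (Stat2, Oas1b and Igtp) at the unadjusted p, and the median was 0.0013, or -0.19 without C-G0 replicate 1. Within slides the median ran from 0.29 (replicates 1 and 2) over 0.06 to -0.52 (replicate 4). Irf7, the factor that amplifies type I interferon, had log2 ratios of -0.84, 0.12, -0.60 and 0.28 in C-G0 and 0.70, 0.76, -0.023 and 0.31 in LPS-G0, which overlapped (log2 fold change 0.70, and 0.50 without C-G0 replicate 1, short of the unadjusted p). Isg15, the ubiquitin-like modifier, ran from -2.09 to 0.25 in C-G0 and from -0.54 to 0.87 in LPS-G0 (log2 fold change 1.01, and 0.56 without C-G0 replicate 1, also short of it). Ifi35 was at -0.59, -0.076, -0.036 and 0.11 in C-G0 and 0.50, 1.02, 0.41 and 0.22 in LPS-G0, without overlap (log2 fold change 0.69, SE 0.22). Stat2, the signal transducer that drives these genes, had log2 ratios of -0.61, 0.58, 0.34 and 0.15 in C-G0 and -0.32, -0.38, -0.35 and -0.42 in LPS-G0. Its log2 fold change was -0.48, and -0.72 without C-G0 replicate 1 (adjusted p = 0.00741 by limma). Igtp, an immunity-related GTPase, differed by -0.46. A second, dimmer Igtp probe, above background on 2 of 4 C-G0 arrays, differed by 0.46, short of the unadjusted p.

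Apoptosis regulators lay lower in LPS-G0. Of 18 measured genes 6 were lower at the unadjusted p and 0 higher, with a median of -0.21, and all 6 were above background on all 8 arrays. They held both arms of the pathway. Bcl2 and Mcl1 restrain the mitochondrial route, Bbc3 (PUMA) and Apaf1 drive it, and Cflar and Birc3 restrain the death receptor route. Bcl2 had log2 ratios of -0.083, 0.13, 0.58 and -0.065 in C-G0 and -0.29, -0.12, -0.51 and -0.47 in LPS-G0, without overlap (log2 fold change -0.49, SE 0.20). Bbc3 was at -0.045, 0.16, 0.25 and 0.047 in C-G0 and -0.33, -0.40, -0.053 and -0.28 in LPS-G0, also without overlap though by a narrow margin (log2 fold change -0.37, SE 0.13). Apaf1 differed by -0.54, Cflar by -0.63, Birc3 by -0.45 and Mcl1 by -0.37, with overlapping groups. A second, dimmer Cflar probe differed by -0.078.

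Among immediate early genes, 2 of 16 measured were lower at the unadjusted p, both of them subunits of the factor AP-1. Jund had log2 ratios of 0.85, 0.64, 0.49 and 0.45 in C-G0 and 0.081, -0.19, -0.0047 and 0.045 in LPS-G0. The groups did not overlap, and the log2 fold change was -0.62 (SE 0.13, adjusted p = 0.192 by limma, and -0.54 with adjusted p = 0.0117 without C-G0 replicate 1). Jun was at -0.18, 0.67, 0.35 and -0.029 in C-G0 and -0.55, -0.12, -0.50 and -0.34 in LPS-G0, and differed by -0.58 with groups that overlapped. Fosb differed by -0.16 (adjusted p = 0.794 by limma).

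Adhesion and homing genes were divided. Of 24 measured, 5 were lower (among them Itga6, Cd44, Pecam1 and Tln1) and 2 higher (S1pr5 and Selplg) at the unadjusted p. Pecam1, found on endothelium, platelets and leukocytes, had log2 ratios of 0.36, 0.65, 0.52 and 0.30 in C-G0 and -0.25, -0.087, 0.19 and -0.13 in LPS-G0, without overlap (log2 fold change -0.53, SE 0.17). Tln1, which links integrins to actin, was at 0.092, 0.26, 0.022 and 0.19 in C-G0 and -0.31, 0.0062, -0.38 and -0.28 in LPS-G0, also without overlap (log2 fold change -0.38, SE 0.13). Selplg, the ligand of P-selectin, differed by 0.45, and by 0.27 without LPS-G0 replicate 4, short of the unadjusted p. Of the 3 endothelial and stromal genes past the unadjusted p, Pecam1 was lower and the other two were higher. Acta2 of smooth muscle was at 0.48, -0.41, -0.28 and -0.34 in C-G0 and 0.57, 0.42, 0.31 and 0.66 in LPS-G0 (log2 fold change 0.62), and Col1a1, a fibrillar collagen, at 0.13, -0.25, -0.057 and -0.20 and 0.38, 0.44, 0.098 and 0.32 (0.40). The mean over the list ran from -0.12 to 0.46 in C-G0 and from 0.033 to 0.33 in LPS-G0, and its part in the other differences was not tested.

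In the antioxidant list 3 of 20 measured genes were higher at the unadjusted p (Txn2, Nqo1 and Hmox1) and 1 lower (Gsr). Nqo1 and Hmox1 were each above background on 3 of 4 C-G0 arrays and passed the filter through LPS-G0 alone. Over the 16 genes above background on all 8 arrays 1 was higher and 1 lower, with a median of -0.0037. Txn2, the mitochondrial thioredoxin, had log2 ratios of -0.48, -0.40, -0.15 and -0.086 in C-G0 and 0.53, 0.43, 0.077 and 0.36 in LPS-G0. The groups did not overlap, and the log2 fold change was 0.63 (SE 0.15), or 0.56 without C-G0 replicate 1 (adjusted p = 0.0233 by limma). Nqo1 and Hmox1, both targets of the stress factor Nrf2, differed by 0.70 and 0.50, with C-G0 replicate 1 at the level of LPS-G0 in each, and Gsr, glutathione reductase, by -0.53. Genes of mitosis had a median of 0.25 over 15 measured genes, with 3 higher (Cdk1, Kif23 and Espl1, at 0.52, 0.56 and 0.87). 6 of the 15 passed the filter through LPS-G0 alone, among them Cdk1 and Espl1 (above background on 3 and 2 of 4 C-G0 arrays), and over the 8 above background on all 8 arrays 1 was higher. For these 3 genes too C-G0 replicate 1 was the highest C-G0 array. With all 8 arrays the medians of the large housekeeping lists were 0.0099 for 89 ribosomal proteins (3 higher, 0 lower), 0.057 for 77 genes of oxidative phosphorylation (6 higher, 0 lower) and -0.093 for 50 splicing genes (0 in either direction). Without C-G0 replicate 1 they were -0.13, 0.0029 and -0.24, with 7 ribosomal protein genes lower at the adjusted p by limma, and the ribosomal median was 0.21, -0.013 and -0.34 within slides 1, 2 and 3. Genes known to answer to glucocorticoids had a median of -0.24 over 10 genes, of which 0 passed the unadjusted p.

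Fam111a was the gene that passed the adjusted p. It encodes a protease that is known for its part in DNA replication and in the restriction of viruses. The probe (chromosome 1, 215596354 to 215596413 on rn4) had log2 ratios of -0.27, -0.15, 0.15 and -0.24 in C-G0 and 1.84, 1.77, 1.30 and 1.09 in LPS-G0. It rose by 1.63 on the log2 scale (SE 0.24, adjusted p = 0.0241 by limma), and the groups did not overlap. It was well above background on 1 of 4 C-G0 arrays, so the level in C-G0 is near the limit of detection. A second probe (chromosome 1, 215596377 to 215596436) was at 0.74, -1.15, -1.68 and -0.37 in C-G0 and 2.17, 1.99, 1.89 and 1.19 in LPS-G0. The groups did not overlap on this probe, with a log2 fold change of 2.43 (SE 0.54, adjusted p = 0.192 by limma). It overlaps the first probe in position and was likewise above background on 1 of 4 C-G0 arrays. Both probes passed the filter through LPS-G0 alone, so the second is no separate support for the first. With single arrays left out the adjusted p of the first probe ran from 0.00502 (without C-G0 replicate 1) to 0.179 (without LPS-G0 replicate 1), and it was 0.857 in the Cy3 channel alone. It was also above 0.05 without C-G0 replicate 2 (0.123) or 4 (0.0506) and without LPS-G0 replicate 2 (0.174) or 3 (0.0665).

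Serp2 and Slc16a1 had the largest differences among the 15 named genes of each direction chosen by their p, Serp2 upward on its brighter probe and Slc16a1 downward. Serp2, which encodes a stress-associated protein of the endoplasmic reticulum, had log2 ratios of 0.21, -0.64, -1.13 and -1.94 in C-G0 and 0.95, 0.29, 1.32 and 1.17 in LPS-G0. The log2 fold change was 1.81 (SE 0.44), without overlap, and a second probe gave 2.46 (SE 0.79). The 2 probes were above background on 3 and 2 of 4 C-G0 arrays and passed the filter through LPS-G0 alone, and without C-G0 replicate 4 they gave 1.45 and 1.49. Slc16a1 is the monocarboxylate transporter MCT1 that carries lactate. It had log2 ratios of 1.27, 0.38, 0.67 and 0.42 in C-G0 and -0.13, -1.17, 0.11 and -1.27 in LPS-G0. The groups did not overlap (log2 fold change -1.30, SE 0.29). Its signal cleared background on 4 arrays of C-G0 but only 3 of LPS-G0, so it was tested by way of C-G0 alone. On both Serp2 probes C-G0 replicate 4 was the lowest array and the within-slide difference was largest on its slide (0.84, 2.45 and 3.1 on the first probe).

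Of the other named genes, Rmnd5a, a subunit of a ubiquitin ligase complex, had log2 ratios of 1.12, 1.15, 0.79 and -0.06 in C-G0 and -0.37, -0.057, 0.049 and -0.86 in LPS-G0. C-G0 replicate 4 overlapped with LPS-G0, and the log2 fold change was -1.05 (SE 0.25). Cntnap2, a cell adhesion protein best known from neurons, had log2 ratios of 1.67, 1.08, 0.61 and 0.83 in C-G0 and -0.49, -0.099, 0.83 and -0.14 in LPS-G0, with LPS-G0 replicate 3 among the controls (log2 fold change -1.02, SE 0.27). Hipk2, a nuclear kinase of the stress response, differed by -1.11, and Cavin2, Slc6a6 (the taurine transporter), Klf7, Lzts2, Mindy2 and Zfp180 by -0.80 to -0.60. The higher genes of this set held no further cytotoxic gene. Adm2, of the adrenomedullin family, Lipc (hepatic lipase), Nudt21 (an mRNA cleavage factor), Smug1 (a uracil glycosylase), Zc3h12c, Trim65, Plaat5 and Slc6a5 (a glycine transporter of neurons) differed by 0.59 to 0.76, as did Txn2 and the olfactory receptors Or1p1 and Or8w1b, with Or56b6b at 0.81. C-G0 replicate 1 was the highest C-G0 array in each of these 15 higher genes other than Fam111a, Gzmk and Txn2.

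Gzmc and Serp2, both also measured by RT-PCR in the study, were described above. Of the other genes measured so, Hmcn2, a hemicentin of the extracellular matrix, differed by 0.016 (SE 0.19, adjusted p = 0.976 by limma) on the single probe of its 5 that was tested. Prodh, proline dehydrogenase, and Camsap2, a binder of microtubule ends, could not be tested, since their probes were above background on at most 2 and 1 C-G0 arrays and on 0 LPS-G0 arrays.

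**Figure D5:**
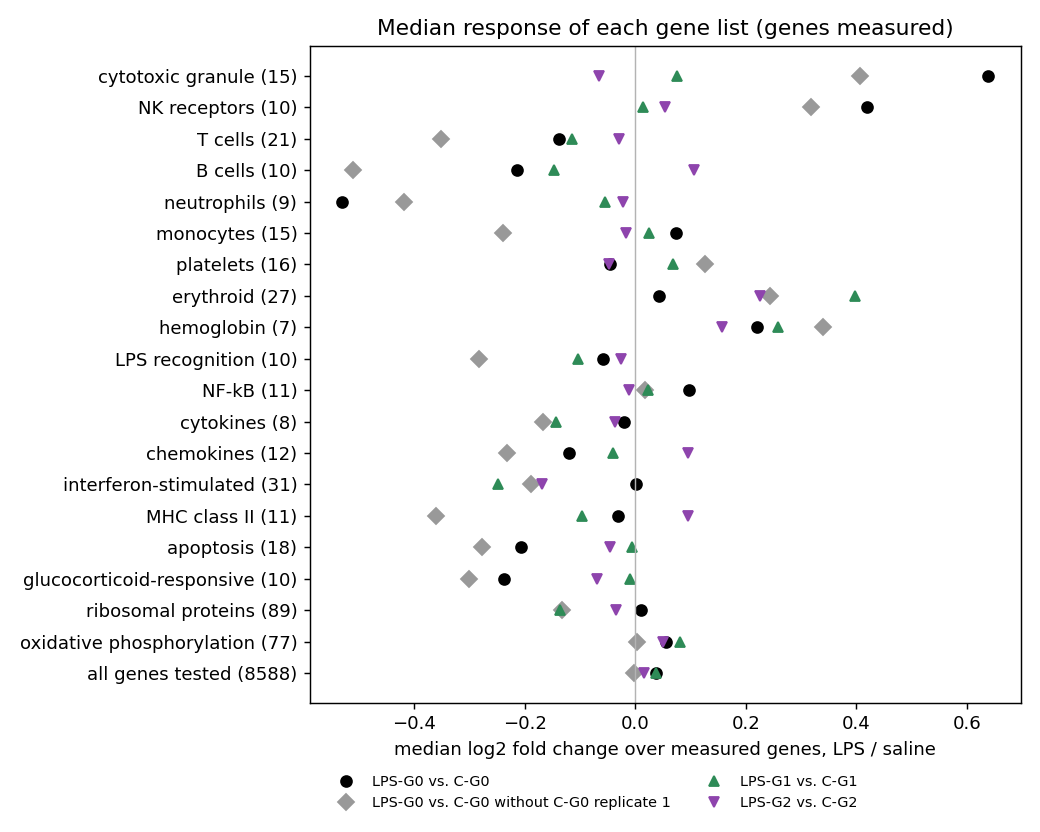
Median log2 fold change of LPS over saline (horizontal axis) over the measured genes of 20 lists, on the control diet with all 8 arrays, on the control diet without C-G0 replicate 1, and on the G1 and G2 diets. Cytotoxic granule and NK receptor genes lie farthest to the right and neutrophil genes farthest to the left on the control diet with all 8 arrays, and on both beta-glucan diets these 3 lists lie near 0. Over genes above background on all 8 arrays the control-diet median was -0.0073 for NK receptor genes (5 genes) and 0.37 for cytotoxic granule genes (11 genes).

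The same injections gave other values on the beta-glucan diets, with their own saline controls. At the unadjusted p, 2.25% of the genes were higher and 0.815% lower in LPS-G1 than in C-G1, and 0.617% higher and 0.396% lower in LPS-G2 than in C-G2. The cytotoxic granule median was 0.075 on G1 and -0.066 on G2, the NK receptor median 0.015 and 0.055, and the neutrophil median -0.055 and -0.022. On both diets 0 cytotoxic granule genes were higher at the unadjusted p and 0 neutrophil genes lower. Gzma differed by 0.10 on G1 and 0.0048 on G2, Gzmk by 0.39 and 0.022, Padi4 by 0.009 and 0.24, and Cd8b by -0.20 and -0.047. The erythroid median was 0.40 on G1 and 0.23 on G2, beside 0.042 on the control diet, a difference that was not tested. Fam111a was higher on G1 by 1.18, past the unadjusted p, and on G2 by 0.43, short of it.

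Whether the LPS effect differed between diets was tested with an interaction term over all 24 arrays. No probe passed the adjusted p for G0 against G1 (smallest adjusted p 0.528 by limma, with 296 probes at the unadjusted p) or for G0 against G2 (smallest adjusted p 0.643, with 567). Serp2 had the smallest p against G1, where LPS went with a log2 difference of -1.48 in place of 1.81 (p of the interaction 5.60e-05 before adjustment, adjusted p = 0.528 by limma). Slc16a1 was higher on G1 and G2, by 0.95 and 0.79, and lower on G0 (p of the interaction 0.00023 and 0.000498 before adjustment, adjusted p = 0.999 and 0.79 by limma). For Gzma the interaction passed the unadjusted p against both diets and for Gzmk against G2, and none passed after adjustment (adjusted p = 0.999 against G1 and 0.79 against G2 for both genes by limma). A different response of cytotoxic or neutrophil genes between the diets was therefore not shown by this test.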

How the data were processed

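Blood RNA of single rats was hybridised to 2-colour Agilent rat arrays, and the LPS-G0 and C-G0 arrays (4 each) were compared. The authors scanned the arrays with Agilent Feature Extraction (version 10.10.1.1 per the file headers, 10.7.3.1 in the submitters' processing notes), which subtracted background and balanced the dyes by lowess. The deposited log10 ratio of each spot, Cy5 over Cy3, was turned in sign and rewritten as log2, and the deposited Cy3 and Cy5 signal intensities served the filter and the alternatives. By the labels Cy3 carried the single rats' RNA, and by the study's methods Cy5 did. The direction was taken from the spread: over 7074 probes above background in both channels the median SD within groups was 0.351 in Cy3 and 0.186 in Cy5, larger in Cy3 for 97.4%, and a channel of single rats carries the spread between rats beside that of the arrays.

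Of 62976 spots, control spots and outlier flags (679 to 1133 per array) were left out, and spots of a probe averaged over 30367 probes. Of these, 18643 were named by RefSeq accession, and 29682 had an rn4 position in the files, whose exons and introns were not annotated here. All 1511424 values of the series-wide log ratios were identical to these and were not used further. limma 3.58.1 (R 4.3.3, with the package data.table at version 1.17.8) was fitted to the control group on G0 and the 3 LPS groups (16 arrays, group only) with Benjamini-Hochberg adjustment at 0.05, and to all 24 arrays for the interactions. Single genes also had an exact permutation test over 70 arrangements, which cannot go below 0.0286. On simulated data of 9415 probes the fit called 75 of 100 probes changed 2-fold and 98 of 100 changed 4-fold, with 10 false among 183 calls. Whether these shares hold for the measured arrays was not tested. There the median SD of a probe was 0.357 in C-G0 and 0.215 in LPS-G0. The number of arrays limits the precision. The labels call the replicates biological.

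The members and all 52 gene lists were chosen with earlier results of these data known. A list was described by counts and medians, with the brightest tested probe of each gene. Genes named were those past the adjusted p, the 15 with the smallest p in each direction at 1.5-fold or more, in each list the 4 members of smallest p and the first 2 in its order, and the RT-PCR genes. Some genes that this rule names are not reported here. Gzmb, Nkg7, Klri1, Tcf7, Itga6, Cd44, Mcl1, Birc3, Isg15, Oas1b, Trim10 and Trim58 were named after their values were seen. Alternatives were the arrays in the fit, slide, replicate number, array weights, a variance trend, other background corrections, the Cy3 channel, the filter, Tukey's test and leaving out arrays.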

Additional observations from a re-analysis of the deposited data

Results flagged for a closer look

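Of 318 sets of 4 values examined, one for each named gene or list in each group, 25 (7.86%) held a sample whose gap to its nearest neighbour was above Dixon's critical share of the range for 4 samples, where chance gives about 1 in 20. C-G0 gave 18 of them and LPS-G0 7, and C-G0 replicate 1 alone gave 11.

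C-G0 replicate 1 was far above its group in the log2 ratio of Acta2 (0.48), Cdk1 (0.58), Gp5 (0.39) and Osm (0.47), and far below it in Cd74 (-1.40), Il1rn (-0.78) and Nfkb1 (-0.35). It was also far below in the mean log2 ratio of the Toll-like receptors other than Tlr4 (-0.98), of MHC class II genes (-0.94), of oxidative phosphorylation (-0.28) and of translation factors (-0.27). C-G0 replicate 2 was far below in Csf3r (-0.56) and in the neutrophil mean (-0.26). C-G0 replicate 3 was far below in Pf4 (-1.20) and in the glycolysis mean (-0.32). C-G0 replicate 4 was far below in Hmcn2 (-0.26), Lzts2 (0.11) and the second Serp2 probe (-4.48).

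In LPS-G0, replicate 2 was far above in Gsr (0.48) and far below in Or8w1b (0.26), and replicate 3 was far above in Ms4a1 (0.052). Replicate 4 was far above in Or1p1 (0.70) and Selplg (0.98), and far below in Cd3d (-0.28) and Lzts2 (-0.66).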

How the results depend on the processing

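None of the 88 named values past the unadjusted p changed sign under the alternatives run. The count of probes past the adjusted p, 1 with all arrays, was 0 with the 8 arrays alone, with all 24 arrays, with a variance trend, in the Cy3 channel alone, without the background filter, over probes above background on all 8 arrays (which leaves Fam111a out) and by Tukey's test (where 555 of 9415 probes had an unadjusted p under 0.05), and 1294 with array weights. The adjusted p of Fam111a was 0.0510 with the 8 arrays, 0.0709 with 24, 0.0832 with the trend, 0.212 without the filter, 0.857 in Cy3 alone and 0.0434 without LPS-G0 replicates 3 and 4. Leaving out single arrays gave counts from 0 to 1202, the highest without C-G0 replicate 1.

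The count of probes higher at the unadjusted p, 1107, was 735 with the 8 arrays alone, 1776 with array weights, 255 in Cy3 alone and 709 without LPS-G0 replicates 3 and 4, whose label conflicts. It ran from 680 (without C-G0 replicate 2) to 1748 (without C-G0 replicate 1). The count lower, 410, was 272, 1115, 257 and 220 under these settings and 922 without the filter, and ran from 210 (without LPS-G0 replicate 4) to 1165 (without C-G0 replicate 1). Groups did not overlap for 507 probes, against 166 in Cy3 alone, 813 without the filter and 1312 without LPS-G0 replicates 3 and 4, and for 604 to 2417 with single arrays left out, where fewer arrays make overlap rarer. The interaction with G1 gave 1 probe with array weights and 0 otherwise, and that with G2 gave 0 to 1, the latter without C-G0 replicate 4.

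The cytotoxic granule median was 0.27 and the neutrophil median -0.32 with normexp, and the NK receptor median -0.0073 over probes above background on all 8 arrays. With single arrays left out the medians ran from 0.41 to 0.89 for cytotoxic granule, 0.32 to 0.52 for NK receptor, -0.58 to -0.41 for neutrophil, -0.35 to -0.042 for T cell and -0.51 to -0.10 for B cell genes. Of 88 named values past the unadjusted p, 32 lost it in Cy3 alone, 27 without LPS-G0 replicates 3 and 4, and 6 to 20 with single arrays left out. With the 8 arrays alone 11 lost it. Values near 0 did change sign, among them the monocyte median (-0.24 without C-G0 replicate 1), the NF-kB and erythroid medians (-0.047 and -0.017 in Cy3 alone) and, short of the unadjusted p, Irak1 and Cd3d (-0.13 to 0.29 and -0.12 to 0.20 with single arrays left out).

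Same-numbered samples of both groups lay on the same slide (replicates 1 and 2 on slide 1, 3 on slide 2 and 4 on slide 3), but no label says that the number marks a pair. Their deviations correlated at 0.058, 0.274, 0.274 and -0.040, and replicates 2 and 3 alone correlated best with their own number. With the replicate block 1278 probes were higher and 527 lower, and 1 passed the adjusted p.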

Other observations

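Olfactory receptor genes, G protein-coupled receptors best known from the nasal epithelium, were chosen after the values were seen, because several were among the higher genes. Of 1177 such genes on the array 77 could be tested, and at the unadjusted p 46 of them were higher and 0 lower, with a median log2 fold change of 0.47. 36 passed the filter through LPS-G0 alone, and over the 40 above background on all 8 arrays 25 were higher, with a median of 0.44. The probes were dim, with a median log2 Cy3 signal of 7.79 against 8.91 over all genes tested. Their mean log2 ratio was 0.48, -0.41, -0.23 and -0.21 on C-G0 replicates 1 to 4 and 0.44, 0.35, 0.19 and 0.46 on LPS-G0 replicates 1 to 4, so that C-G0 replicate 1 lay with LPS-G0. Without that array the median was 0.67 and 49 genes passed the adjusted p by limma. The median was 0.31 with normexp background correction and 0.45 in the Cy3 channel alone, and it was 0.27 between LPS-G1 and C-G1 (2 higher) and 0.069 between LPS-G2 and C-G2 (0 higher).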
